A study of Homo sapiens with 18 samples.

Results

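Transcripts of the oxidative phosphorylation genes of both genomes were followed in the human glioblastoma cell line U87 under rexinoid treatment. Members were chosen by gene name alone. Mitochondrial members carry names starting with MT-ND, MT-CO, MT-ATP or MT-CYB on the mitochondrial chromosome. Nuclear members carry names starting with NDUFA, NDUFB, NDUFC, NDUFS, NDUFV, UQCR, ATP5 or COX4 to COX8, or are SDHA, SDHB, SDHC or SDHD, without the 166 pseudogene names ending in P and digits. MT-ATP6 and MT-ATP8 also end in a P and a digit but were kept, because their prefix is listed. The rule gave 114 members of 60675 gene IDs, 13 mitochondrial and 101 nuclear. Of these, 108 passed the filter on low values (at least 1 TPM, the transcript share that the deposited tables give for a gene, in at least 3 libraries) and were tested: all 13 mitochondrial and 95 nuclear members.

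Oxidative phosphorylation makes ATP in the inner mitochondrial membrane. Complexes I, III and IV pump protons as electrons pass from NADH to oxygen, complex II feeds in electrons from succinate without pumping, and complex V, the ATP synthase, uses the proton gradient. Core subunits of complexes I, III, IV and V are encoded by mitochondrial DNA, whose strands are transcribed as long precursors that are cut at the transfer RNAs. MT-ND6 is the protein gene of the light strand. All other subunits, the whole of complex II and the assembly factors come from nuclear genes, so the complexes need transcripts from both genomes.

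In 3 places neighbouring mitochondrial genes share bases, so reads from there cannot be given to 1 gene alone. MT-ATP6 and MT-CO3 share 1 base, position 9207, and the other pairs share more. The stretches below, from GENCODE release 29 transcripts on GRCh38, are shown because the gene with the largest drop in the data, MT-ATP8, is one of these genes. Capitals mark the bases that both genes of a pair hold. MT-ATP8 and MT-ATP6 share 46 bases (positions 8527 to 8572 of the mitochondrial chromosome), and MT-ND4L and MT-ND4 share 7 (10760 to 10766). All 4 lie on the plus strand.
MT-ATP8, last 90 of 207 bases: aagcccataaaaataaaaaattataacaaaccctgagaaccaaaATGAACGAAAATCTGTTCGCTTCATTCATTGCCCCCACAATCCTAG
MT-ATP6, first 90 of 681 bases: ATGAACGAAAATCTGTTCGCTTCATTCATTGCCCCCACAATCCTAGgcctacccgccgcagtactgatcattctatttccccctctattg
MT-ND4L, last 60 of 297 bases: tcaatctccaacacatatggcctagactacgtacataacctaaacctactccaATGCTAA
MT-ND4, first 60 of 1378 bases: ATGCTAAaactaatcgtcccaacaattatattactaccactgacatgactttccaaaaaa
The shared bases are 46 of the 207 in MT-ATP8 and 46 of the 681 in MT-ATP6, so the shorter gene is affected more.

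The 6 groups held 3 libraries each: Ethanol (the vehicle), Bexarotene (a rexinoid in clinical use) and the coded rexinoids A34, A41, A80 and A98. Every rexinoid was given once at 100 nM, and all groups, Ethanol included, were harvested at 24 h. Rexinoids bind and activate retinoid X receptors, which are nuclear receptors. The cells carried no genetic modification, and total RNA was depleted of ribosomal RNA, fragmented and primed at random. The labels do not say whether a group's 3 libraries were grown as separate cultures. The p-values therefore reflect only library-to-library spread, possibly technical.

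Libraries rested on 1.31 to 3.89 gigabases of aligned sequence. Ribosomal RNA took over 20% of TPM in 3 libraries (Ethanol replicate 2, Bexarotene replicate 1 and A41 replicate 2), so levels are given as scaled TPM, which is TPM divided by a median-of-ratios factor of the library. Of markers of the line, VIM averaged 4058 scaled TPM and CD44 1015, whereas the astrocyte genes GFAP, S100B and AQP4, for cells labelled glial, averaged 0.79, 0.0097 and 0.048. In all, 9 of 11 astrocyte and glioma markers passed the filter, among them SLC1A3 at 20.9. Of 14 markers of other cell types 8 passed, among them CD68 at 177, SNAP25 at 14.2 and CSF1R at 12.4, while the leukocyte marker PTPRC averaged 0.057. A80 replicate 3 stood apart in the mitochondrial members, and each result that rests on it is also given without it. Fewer cells, fewer mitochondria and less RNA per cell cannot be told apart in such bulk libraries.

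The mitochondrial transcripts were the most abundant members. Their means over the 18 libraries ran from 1540 scaled TPM for MT-ND6 to 6174 for MT-ATP8, and even MT-ND6 stood 3.11 times above the highest nuclear member. The subunits of complexes IV and V led: MT-ATP8 was followed by MT-CO2 at 6039, MT-CO3 at 5597, MT-ATP6 at 5136 and MT-CO1 at 4471, the subunit that holds the oxygen-reducing site. The complex I subunits MT-ND4, MT-ND1, MT-ND2 and MT-ND4L averaged 3852, 3327, 3214 and 3116. MT-CYB, the complex III subunit, averaged 1909, and MT-ND3 and MT-ND5 averaged 1791 and 1686. MT-ATP8 was the highest of the 13 in 13 libraries and MT-CO2 in the other 5. These neighbours in the order were not distinct in every library. Without A80 replicate 3, the coefficient of variation over 17 libraries was between 7.08% and 14.6% for the 13 genes, with a median of 11.004%. The median was 9.70% for the 95 nuclear members tested and 9.36% for the 5198 tested genes of mean level 20 or more.

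**Figure D1:**
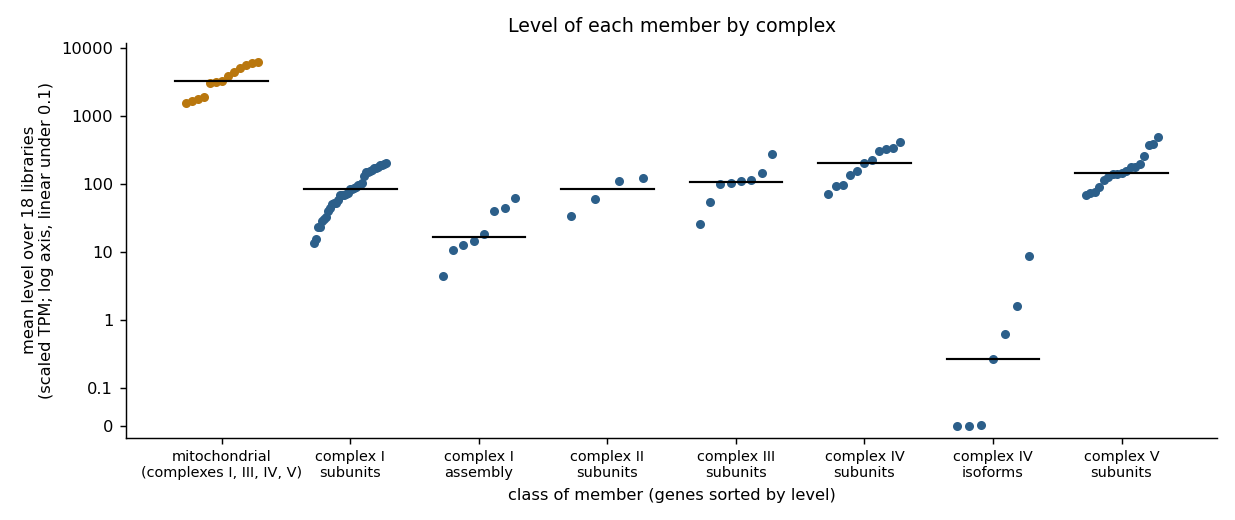
Mean level of the members over 18 libraries, in scaled TPM on a log axis that is linear under 0.1, by class (classes of 1 gene, noncoding and readthrough rows are not drawn); each point is 1 gene and the bar is the class median. The 13 mitochondrial genes lie between 1540 and 6174, the nuclear subunits between 13.5 and 494.8, and 3 of the 7 isoform genes of complex IV sit at or near 0.

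Nuclear subunits differed in level by complex. The 17 ATP synthase subunits had a median of 145 scaled TPM and the 11 subunits of complex IV one of 206, against 84.8 for the 37 of complex I, 85.1 for the 4 of complex II and 109 for the 8 of complex III. The highest nuclear member was ATP5F1B, the catalytic beta subunit of the ATP synthase, at 494.8, and ATP5MF, a small membrane subunit, followed in this complex at 390.5. COX4I1 led complex IV at 413, ahead of COX7C at 346. UQCRH, the hinge protein of complex III, averaged 275, and UQCRC1, a core protein, 148. In complex I, NDUFS6 and NDUFA1 averaged 204 and 199, and the lowest subunit, NDUFV3, 13.5. The 8 NDUFAF assembly factors had a median of 16.7, from 4.53 for NDUFAF5 to 63.3 for NDUFAF8. ATP5IF1, the inhibitor of the ATP synthase, averaged 185.

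Of the 7 isoform genes of complex IV, 4 did not pass the filter on low values and the other 3 averaged 0.62 to 8.77 scaled TPM, below every usual subunit of the complex. COX4I2, the lung isoform of COX4I1 that oxygen supply is known to control, and COX6A2, the muscle isoform of COX6A1, were listed at 0 in all 18 libraries. COX7B2 averaged 0.0021 scaled TPM and COX6B2 0.27, and both stayed under the filter. COX7A1, the heart and muscle isoform, ranged from 0 to 1.88, and COX8C from 4.88 to 11.2. NDUFA4, a complex IV subunit despite its name, averaged 95.2, and its paralog NDUFA4L2, known to be induced in hypoxia, averaged 1.64. NDUFA4L2 read 2.01, 1.53 and 0.54 in Ethanol and 0.74, 2.59 and 3.28 in A80, so those groups overlapped. The 2 remaining members under the filter were ATP5MGL at 0.35 and the readthrough row ATP5MF-PTCD1 at 0.27.

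Levels of several rows are uncertain because their reads could belong elsewhere. NDUFC2-KCTD14, a readthrough row over NDUFC2, swung between 0 and 11.4 scaled TPM with a coefficient of variation of 117%. UQCRHL, a nearly identical copy of UQCRH, averaged 7.55. The antisense or divergent rows NDUFA6-DT, NDUFB2-AS1 and NDUFV2-AS1 averaged 0.997 to 1.46, with strand handling not given in the sources used here. Nuclear copies of mitochondrial genes are near-identical too. On chromosome 1 of GRCh38, MTATP6P1 (633696 to 634376) matched MT-ATP6 at 98.5% of aligned bases and averaged 691 scaled TPM, and MTND2P28 (629640 to 630683) matched MT-ND2 at 98.4% and averaged 457. Summed over the 402 rows of such copies, the level ran from 1432 to 3658, against 18718 to 56250 for the 13 mitochondrial genes.

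The nuclear sum was steady between libraries and the mitochondrial sum was not. Summed over 101 nuclear members, the level lay between 10463 and 11773 scaled TPM in all 18 libraries. The 13 mitochondrial members summed to 50713, 48504 and 48194 scaled TPM in Ethanol replicates 1 to 3. They summed to 53219, 48767 and 50214 in Bexarotene. The sums in A34 were 51782, 56250 and 41481, and those in A41 52827, 54795 and 53286. A80 gave 55738, 46855 and 18718, and A98 gave 42176, 42328 and 45486. On this scaling the A98 libraries all lay below the Ethanol libraries, the A41 libraries all lay above them, and the other groups overlapped Ethanol.

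**Figure D2:**
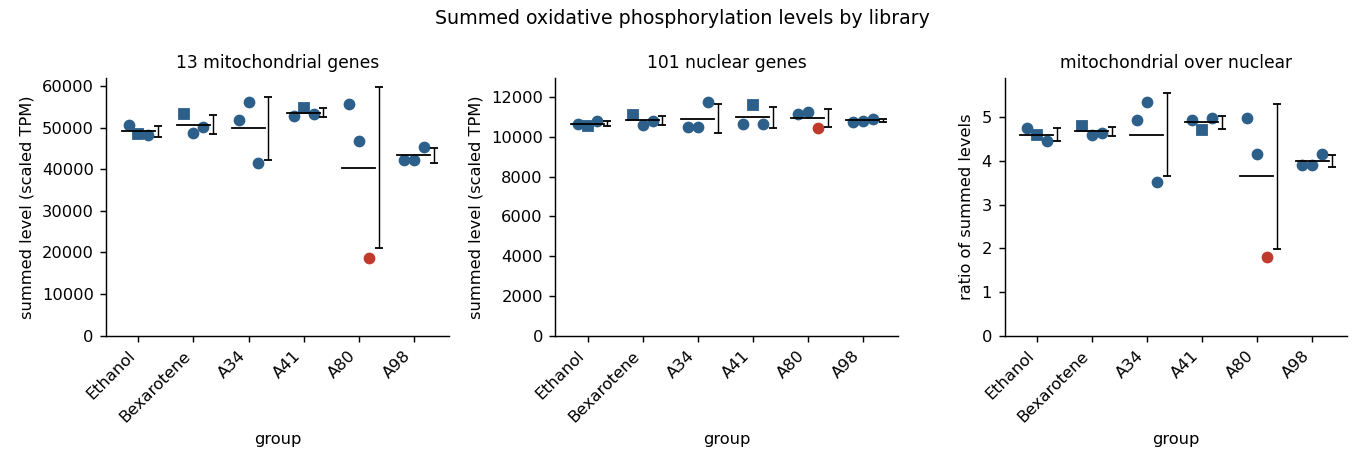
Summed level of the 13 mitochondrial members (left) and the 101 nuclear members (middle), in scaled TPM, and their ratio (right), by group; each point is 1 library, squares are the 3 libraries rich in ribosomal RNA, the red point is A80 replicate 3, horizontal bars are group means and whiskers 1 SD (n = 3). The nuclear sums lie between 10463 and 11773, while A80 replicate 3 has a mitochondrial sum of 18718 against 41481 or more in the other 17.

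As a ratio, mitochondrial over nuclear summed level was 4.61 ± 0.14 in Ethanol, 4.68 ± 0.10 in Bexarotene, 4.60 ± 0.96 in A34, 4.89 ± 0.15 in A41 and 3.65 ± 1.66 in A80 (mean ± SD, n = 3 libraries). In A98 the libraries read 3.92, 3.91 and 4.17, all below the lowest Ethanol library at 4.46. The wide spread in A80 came from replicate 3 at 1.79, beside 4.99 and 4.16 in replicates 1 and 2. Without it the A80 mean was 4.57. In A34, replicate 3 was lowest at 3.52 and replicate 2 the highest of all libraries at 5.36. The ratio does not depend on the scaling, since both sums are divided by the same factor. On the log2 scale it was lower than Ethanol by a mean difference of -0.20 in A98 and -0.46 in A80, the latter -0.015 without replicate 3.

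A80 replicate 3 was the lowest of the 18 libraries for each of the 13 mitochondrial genes. MT-ATP8 read 7167, 6883 and 6337 scaled TPM in Ethanol, 6674, 6768 and 6830 in Bexarotene, and 6651, 7389 and 5429 in A34. It read 7221, 5737 and 7101 in A41, 7353, 5891 and 1172 in A80, and 5175, 5572 and 5781 in A98. A80 replicate 3 was thus 5.65-fold below the mean of the other A80 libraries and 4.41-fold below the next lowest library. MT-ATP6 was 3.58-fold below replicates 1 and 2, and MT-ND4, MT-ND4L and MT-ND2 lay between 2.96-fold and 3.13-fold below. The other 8 genes were 2.11-fold to 2.54-fold lower, with MT-CO1 at 2167 against 5410 and 4479. The smallest drop was in MT-ND6, the light-strand gene, at 829 against 1969 and 1534. The drop changed the order of the genes, and MT-ATP8, at ranks 1 to 4 of the 13 elsewhere, had rank 7 in A80 replicate 3.

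**Figure D3:**
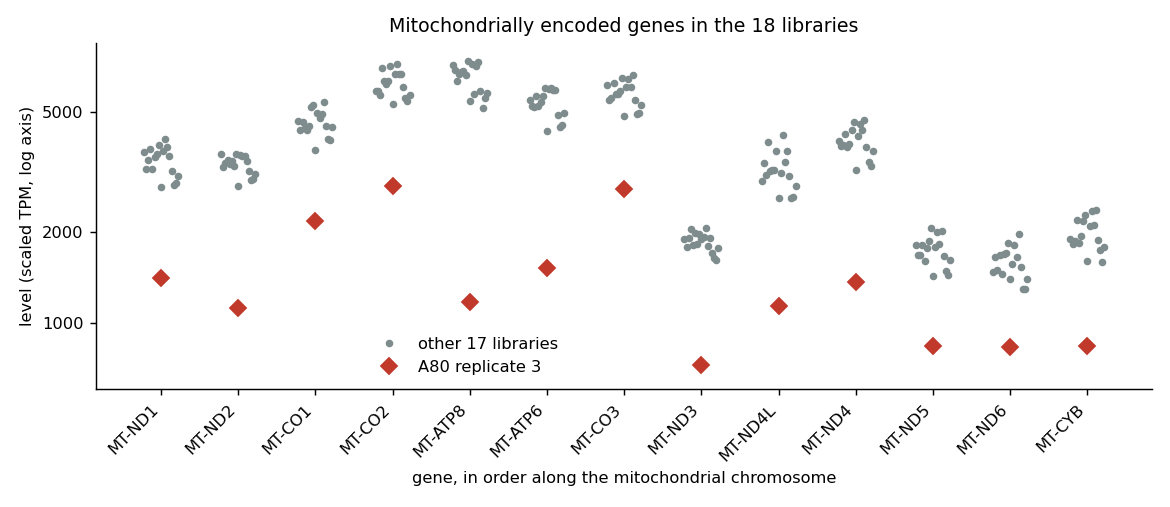
Level of the 13 mitochondrial genes in scaled TPM (log axis), in their order along the chromosome; grey points are 17 libraries and red diamonds A80 replicate 3. The red diamond lies below every grey point for all 13 genes, and the gap is widest at MT-ATP8, 1172 against at least 5175.

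Other rows of the mitochondrial chromosome were low in A80 replicate 3 in part. Of 22 mitochondrial transfer RNA rows, 10 were below all other 17 libraries and MT-TH was above them. Over all tested genes, this library was the lowest for 5.25%. MT-TL1, next to the ribosomal RNA genes, read 137 scaled TPM against 575 and 516 in the other A80 libraries, and MT-TA read 892 against 559 and 403. The summed transfer RNA level, 8615, fell within the 6268 to 11049 of the other libraries. Of 33 nuclear copies of mitochondrial genes that passed the filter, 16 were below all 17 others, beside the same 5.25%. These copies lie on nuclear chromosomes, but their reads could belong to the near-identical mitochondrial genes, so their drop is not a separate observation. This was the deepest library, at 3.89 gigabases, its ribosomal RNA share was 0.543% of TPM, and its scaling factor lay within the range of the others. All 17 tested hypoxia and glycolysis genes were lower there than the mean of A80 replicates 1 and 2. Their median log2 difference was -0.66 (range -2.14 to -0.0034), but 0 of the 17 were below all other libraries. Whether any of these moved the mitochondrial level was not tested.

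Among nuclear members, A80 replicate 3 was the lowest of 18 libraries for 14 of 95, or 14.7%, against 5.25% of all tested genes. NDUFB4, an accessory subunit of complex I, showed the largest drop, at 80.8 scaled TPM against 214 and 215 in A80 replicates 1 and 2 and at least 156 elsewhere. NDUFA4 read 57.7 against 96.3 and 98.4, ATP5PF, a stalk subunit of the ATP synthase, 90.2 against 135 and 159, and COX7C 255 against 384 and 344. The other 10 lowest members were ATP5MD, NDUFA12, NDUFA7, NDUFA6, NDUFAF2, ATP5MPL, ATP5MF, UQCR10, ATP5F1E and COX7B, by 1.15-fold to 1.52-fold against replicates 1 and 2. A80 replicate 3 was the highest of 18 libraries for 8 of 95 nuclear members, beside 1074 of the 18269 tested genes. Among these 8 were ATP5F1B at 566 and UQCRC1 at 172. The median nuclear difference from the other A80 libraries was -0.07 on the log2 scale, against -1.32 for the mitochondrial members. Of 29 genes of mitochondrial DNA transcription, replication and transcript stability, 1 was lowest there and 2 were highest. The lowest was SSBP1, the mitochondrial single-strand DNA binding protein, and the highest were the polymerase gene POLRMT and FASTK. These counts are near the shares of all tested genes, 5.25% lowest and 1074 of 18269 highest, so they mark nothing particular to this set.

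**Figure D4:**
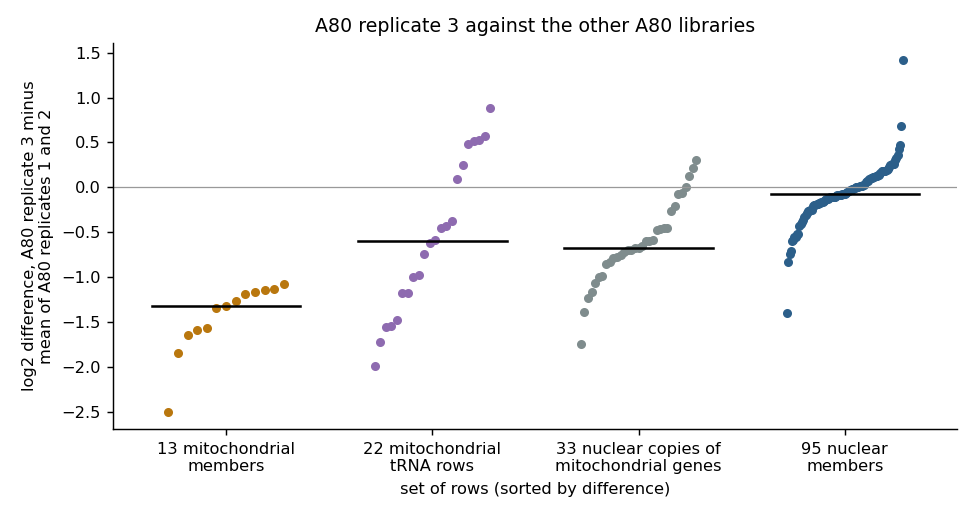
Log2 difference of A80 replicate 3 from the mean of A80 replicates 1 and 2, on log2(scaled TPM + 1), for each row of 4 sets; points are genes sorted by difference and bars are medians. All 13 mitochondrial members lie below 0 with a median of -1.32, transfer RNA rows and nuclear copies have medians of -0.60 and -0.67 with single rows above 0, and the 95 nuclear members centre on -0.07.

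Against Ethanol, no member passed the threshold with any rexinoid (limma, Benjamini-Hochberg adjusted p of 0.05 over 18269 genes). With Bexarotene 0 of 108 members were called, beside 0.0547% of all tested genes, and with A34 0 beside 0.0821%. With A41 it was 0 beside 0.755%, with A80 0 beside 0.0438%, with A98 0 beside 0.0328%, and for the mean of the 5 rexinoids 0 beside 0.203%. At an unadjusted p under 0.05, the 95 nuclear members counted 4, 4, 8, 5 and 2 with Bexarotene, A34, A41, A80 and A98, and the 13 mitochondrial members 0 in each. The share of all tested genes was 5.75%, 10.7%, 10.4%, 9.41% and 6.63%, against 4.21%, 4.21%, 8.42%, 5.26% and 2.11% of the nuclear members. In these same fits CYP26B1, SCD, DHRS3 and ABCA1, known rexinoid targets, rose with every rexinoid, 4 of 4. These 4 were listed with earlier results of these data known, so their rise is no independent check of the fits.

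The mitochondrial members lay above Ethanol with A41 and below it with A98 on the scaling used, without a call. Relative to the median of all genes, both signs were the same under all 3 scalings tried. A scaling divides every gene of a library by the same factor. The agreement was therefore largely fixed in advance and is no independent check. With A98 all 13 were lower, with a median log2 difference of -0.18 against -0.0013 for all tested genes, and for 12 of them every A98 library lay below every Ethanol library, as it did for 8.18% of all tested genes. MT-ND1 is an example: Ethanol read 3694, 3247 and 3468 scaled TPM, and A98 read 2861, 2913 and 3057. Its difference was -0.24 with a 95% interval of -0.76 to 0.29 and an adjusted p of 0.91 (limma). With A41 12 of 13 were higher, with a median of 0.12, and 6 did not overlap Ethanol, beside 8.27% of all genes. MT-CO2 read 5895, 5875 and 5715 in Ethanol and 6676, 7215 and 6683 in A41. Its difference was 0.23 (interval -0.26 to 0.73, limma adjusted p 0.77). The 13 genes are cut from shared precursors and were read in the same libraries, so counts of them are not independent observations.

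The other scalings moved all genes, and the mitochondrial medians moved with them. On TPM as deposited, the median of all genes shifted by 0.15 with A98 and by -0.27 with A41, and the mitochondrial medians became 0.00014 (7 genes higher, 6 lower) and -0.22 (13 lower). Scaled to nuclear TPM without ribosomal RNA, they were -0.24 with A98 and -0.064 with A41, beside -0.053 and -0.16 for all genes. Taken relative to the median of all genes, the mitochondrial median was -0.18, -0.15 and -0.18 with A98 and 0.13, 0.050 and 0.10 with A41 under the 3 scalings.

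With A80 the 13 mitochondrial members were lower by a median of -0.41, from -0.18 for MT-ND6 to -0.87 for MT-ATP8, and this rested on replicate 3. Relative to all genes the median was -0.39 on TPM as deposited and -0.43 under nuclear scaling. Without that library 9 of 13 were higher than Ethanol, with a median of 0.089. No gene of the 13 separated A80 from Ethanol. With Bexarotene and A34 the medians were 0.032 and 0.024 (relative to all genes, -0.010 and 0.044 on TPM as deposited, 0.0082 and 0.0071 under nuclear scaling), the latter 0.14 with all 13 higher without A34 replicate 3. A80 replicate 3 also widened the error in every comparison, because all groups share 1 estimate of the spread. The median width to each side of the 95% interval of the mitochondrial members was 0.53 with all libraries and 0.27 without it in the comparisons that did not involve A80, and no member was called in either case. Differences smaller than these widths were not detectable here. Larger ones could go uncalled too, because the intervals are not adjusted for the number of genes tested.

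**Figure D5:**
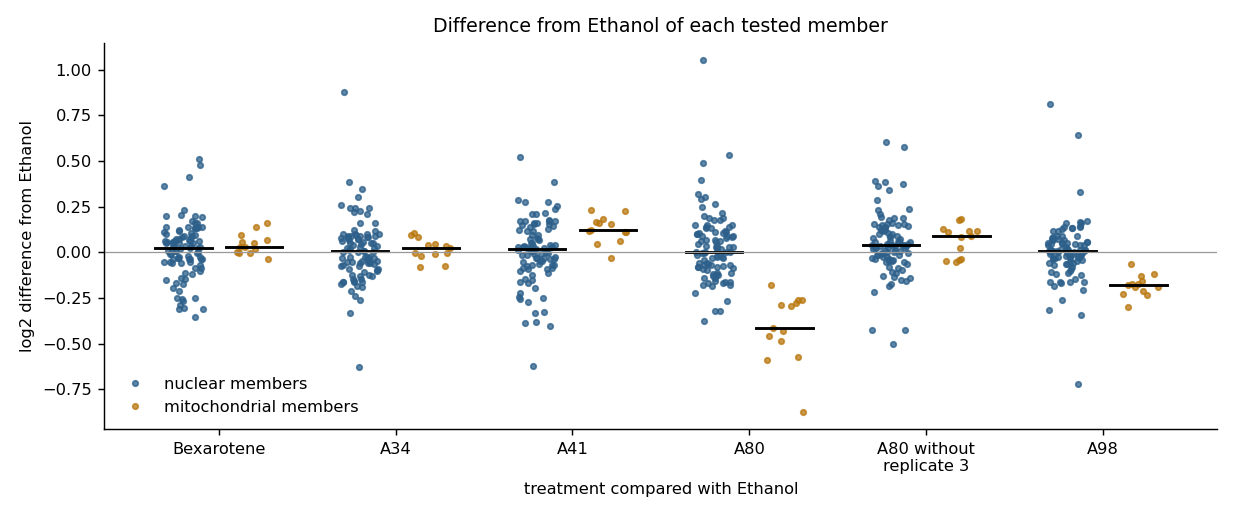
Log2 difference from Ethanol of each tested member, on log2(scaled TPM + 1), for the 95 nuclear (blue) and 13 mitochondrial (orange) members; points are genes and bars medians. Nuclear medians stay near 0 throughout, and the mitochondrial median is 0.12 with A41, -0.18 with A98 (relative to all genes, 0.050 and -0.15 on TPM as deposited) and -0.41 with A80, which becomes 0.089 without A80 replicate 3.

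Nuclear members centred on Ethanol with every rexinoid. Their median log2 difference was 0.024 for Bexarotene (55 above 0, 40 below) and 0.016 for A41 (53 above, 42 below). It was 0.0082 for A98 (52 above, 43 below), 0.0072 for A34 and 0.0033 for A80 (51 above and 44 below in both). Without A80 replicate 3 the A80 median was 0.038 (59 above, 36 below). The medians of complexes I to V lay between -0.090 (complex III with A34, 9 genes) and 0.069 (complex IV with A34 and with A98, 15 genes). The 95% interval lay wholly between -0.5 and 0.5 for 72 to 80 of the 95 nuclear members in each of these comparisons, and between -1 and 1 for 90 to 92. Members whose interval passed these bounds in a comparison were NDUFC2-KCTD14, NDUFV2-AS1, COX7A1, NDUFAF5, NDUFA4L2, NDUFA5 and ATP5MC2. Counted over all 108 members, groups did not overlap Ethanol for 5 higher and 4 lower with Bexarotene, beside 6.87% and 5.9% of all tested genes, and for 1 higher and 5 lower with A34, beside 8.22% and 8.36%. With A41 it was 8 higher and 6 lower, beside 8.27% and 7.67%. With A80 it was 4 higher and 3 lower, beside 8.6% and 7.78%, and with A98 4 higher, beside 8.49%, and 18 lower, beside 8.18%, of which 12 were the mitochondrial members above.

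The members of smallest p are given as values, since none passed. COX7B, a small subunit of complex IV, read 64.1, 76.2 and 65.4 scaled TPM in Ethanol and 84.2, 90.4 and 90.2 with Bexarotene, without overlap. Its difference was 0.36 (95% interval 0.15 to 0.58), with a limma adjusted p of 0.84. SDHD, a membrane anchor of complex II, read 36.6, 36.8 and 38.5 in Ethanol and 29.6, 32.3 and 31.4 with Bexarotene, a difference of -0.26 (adjusted p 0.84). With A41 it read 34.3, 25.7 and 34.2, a difference of -0.25 (adjusted p 0.39). The other anchor, SDHC, differed by -0.22 with A41 (adjusted p 0.43), while the catalytic subunits SDHA and SDHB averaged 110 and 121 over all libraries, with coefficients of variation of 6.49% and 7.59%. The low SDHC and SDHD values of A41 were partly those of replicate 2, rich in ribosomal RNA, which read 46.8 and 25.7.

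NDUFB8, an accessory subunit of complex I, read 167, 182 and 164 scaled TPM in Ethanol. It read 209, 199 and 199 with A34 (difference 0.24, interval 0.075 to 0.41, adjusted p 0.29) and 195, 187 and 192 with A98 (0.16, adjusted p 0.75), both without overlap. Over the 5 rexinoids its mean difference was 0.16 (adjusted p 0.36). NDUFV3 and UQCRC2 differed by -0.19 and -0.16 with A34. ATP5MC3, a gene for the membrane ring of the ATP synthase, read 122, 103 and 91.8 in Ethanol and 79.95, 83.6 and 76.4 with A41, a difference of -0.39 (adjusted p 0.30). It differed by -0.31 with Bexarotene and by -0.25 over the 5 rexinoids. With A80 the smallest p belonged to UQCRC1 (0.19), COX4I1 (0.27) and ATP5PD (0.15), with adjusted p from 0.44 to 0.48. Without A80 replicate 3 these differences were 0.12, 0.29 and 0.18, with adjusted p from 0.37 to 0.58 (limma). With A98 NDUFA5 read 72.04, 49.1 and 67.0 against 28.8, 42.7 and 49.4, a difference of 0.64 (adjusted p 0.72), and the assembly factor NDUFAF5 differed by -0.72 (adjusted p 0.73) at 2.23 to 4.64 against 5.15 to 7.73.

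In 10 comparisons between rexinoids at the matched dose and time, no member passed the threshold either. Against Bexarotene, 0 of 108 members were called with A34, A41, A80 or A98, beside 0%, 0.115%, 0% and 0.00547% of all tested genes. Between coded compounds 0 members were called for A41 against A34, A80 and A98, beside 0.0712%, 0.126% and 0.131%. It was also 0 for A34 against A80 (0%), A34 against A98 (0.00547%) and A80 against A98 (0.00547%). At an unadjusted p under 0.05 these counted from 0 to 7 of 108 members, or 0% to 6.48%, beside 3.55% to 7.95% of all tested genes. The largest mitochondrial contrast that did not involve A80 was A41 against A98: 13 of 13 higher in A41 with a median of 0.31, and 12 without overlap, beside 6.11% of all tested genes. On TPM as deposited the median was -0.21, beside -0.42 for all genes. MT-ND1 differed by 0.39 (95% interval -0.14 to 0.92, limma adjusted p 0.75), and without A80 replicate 3, 11 of the 13 had an unadjusted p under 0.05, beside 1349 of the 18269 tested genes, and the smallest adjusted p was 0.42. A98 was also below Bexarotene by a median of -0.22, with 11 of 13 not overlapping, beside 7.99%. On TPM as deposited this median was 0.16 beside 0.32 for all genes, a relative difference of -0.16. These comparisons share the A98 libraries with that against Ethanol, and counts of the 13 linked genes are again not independent observations.

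By replicate number, which the titles give as 1 to 3 in each group, 0 of 108 members were called (limma F test with treatment in the model), beside 1.01% of all tested genes. At an unadjusted p under 0.05, 5 of 95 nuclear and 0 of 13 mitochondrial members were counted, beside 2123 of 18269 tested genes. The smallest p belonged to UQCRQ (means of 109, 96.4 and 112 scaled TPM for replicates 1 to 3), NDUFC1 (43.7, 41.8 and 33.98), COX7B, UQCRB and UQCRC2, with adjusted p from 0.34 to 0.43. Of 17 hypoxia and glycolysis genes 9 were called by replicate number. NDRG1, one of them, reached 774 in A80 replicate 1 and 221 in replicate 3, while NDUFA4L2 read 0.74 and 3.28.

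Genes that serve the same machinery outside the rule gave 1 call against Ethanol. Of 10 tested electron carriers and related subunits, among them CYC1 (mean 101 scaled TPM) and cytochrome c, CYCS (66.1), 0 were called with any rexinoid against Ethanol. The same held for 29 genes of mitochondrial DNA expression, 43 further assembly factors, 13 genes of ubiquinone synthesis and 24 mitochondrial ribosomal and transfer RNA rows. At an unadjusted p under 0.05, the mitochondrial DNA expression genes counted 4, 8, 4, 7 and 1 of 29 with Bexarotene, A34, A41, A80 and A98. The shares of all tested genes were 5.75%, 10.7%, 10.4%, 9.41% and 6.63%. The mitochondrial ribosomal and transfer RNA rows counted 7 of 24 with A98, beside that 6.63%, and their median difference there was -0.49. Ribosomal RNA had been depleted, and its mitochondrial rows summed to 182, 35907 and 3158 scaled TPM in Ethanol and 630, 83.8 and 103 in A98. The transfer RNA rows summed to 11049, the highest of 18 libraries, 8631 and 8509 in Ethanol and 6268, 7579 and 7879 in A98. How far depletion moved these rows was not tested. Of 11 regulators of mitochondrial biogenesis, NRIP1, a nuclear receptor corepressor, was called, higher with A41: it read 24.8, 30.2 and 27.2 in Ethanol and 50.8, 45.1 and 43.3 with A41. Over all tested genes 0.755% were called with A41. TFAM, which packages and helps transcribe mitochondrial DNA, averaged 17.5 and read 18.8 in A80 replicate 3. PPARGC1A, the coactivator of mitochondrial biogenesis, averaged 0.88.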

How the data were processed

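The 18 deposited tables are StringTie gene abundances on GRCh38, 1 per library; STAR, StringTie and MultiQC were used per the submitters' processing notes, with versions, annotation release and strand handling not given in the sources used here. TPM, a share of all transcripts, and FPKM were computed by the authors, per the file headers. Coverage, the deposited signal in reads per base, divided by FPKM gave the aligned gigabases, since no counts are held. Repeated gene IDs (2 to 3 per table) were summed. The tables of the A98 libraries carry another code, A90. In every group, replicate 3 of the titles has number 4 in the table name. Ethanol replicate 2 has 3 there, and A98 replicates 1 and 2 have 2 and 3. The titles were followed.

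TPM was divided by a median-of-ratios factor over 16349 genes above 0 in all libraries (0.417 to 1.20). Log2(scaled TPM + 1), which understates the change of low genes, entered limma 3.58.1 (R 4.3.3), with 18 libraries in 6 groups (12 residual degrees of freedom, trend on mean level), after a filter of 1 TPM in 3 libraries (18269 genes). The threshold was 0.05 after Benjamini-Hochberg adjustment across every tested gene, all tests were two-sided, and intervals are 95%. The fit was tested on simulated data. Libraries correlated at 0.951 to 0.981 within groups and 0.944 to 0.982 between groups, and no pair was identical (0 pairs). Same-numbered libraries of Ethanol and A41, by the titles, deviated together in all 3 pairs (r of 0.12 to 0.31). Replicate 2 of both groups was rich in ribosomal RNA. No label says what a number marks, and the tests carry no block. Members, gene lists and tests were chosen with earlier results of these data known. Named genes are those past the threshold or, where fewer than 3 pass, the 3 of smallest p, with the 13 mitochondrial genes and members of high mean level in each complex. A search of promoters for motifs is void, because 64 of 96 nuclear coding members, under 80%, had a promoter sequence. The alternatives were other scalings, filters, a pseudocount of 0.1, replicate blocks, only the groups compared, each replicate left out, libraries rich in ribosomal RNA left out, and, chosen after seeing the data, A80 replicate 3 left out of every fit. Nuclear scaling means TPM rescaled over nuclear rows other than ribosomal RNA. Copies were aligned to mitochondrial genes with edlib 1.3.9.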

Additional observations from a re-analysis of the deposited data

How the results depend on the processing

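No member was called in any of the 17 tests under those of the 28 alternative settings that applied to it: all 286 counts stayed at 0, while the number of all tested genes called for A41 against Ethanol ranged from 4 (TPM as deposited) to 197 (replicate block by title number). Because few genes were called over all, counts at or near 0 would also be reached at the share of all genes. Their stability says little about the members. Leaving out each replicate in turn gave 0 members in every case. With a replicate block the count of members was also 0, by the numbers of the titles and by those of the table names. By title number, the block raised the calls over all genes from 15 to 166 for A34 and from 8 to 117 for A80 against Ethanol. By table-name number these rose to 57 and 51. The other calls against Ethanol, by title and by table-name number, went from 10 to 13 and 8 for Bexarotene. They went from 138 to 197 and 116 for A41, and from 6 to 8 and 15 for A98. Same-numbered libraries, by the titles, deviated together at r over 0.1 in 11 of 45 pairs (range -0.36 to 0.31). Among 15 pairs of groups, Ethanol with A41 alone did so in all 3 pairs. Replicate 2 of both groups was rich in ribosomal RNA, and that pair had the highest r, 0.31. Deviations from the mean of a group of 3 sum to 0, so 1 such library bears on all 3 pairs. Of 18 libraries, 10 correlated best with their own number out of 3. This is at most a hint from the data and not from the labels, and it cannot tell a shared number from shared ribosomal RNA content. Of 315 values of single named genes under alternatives, 314 kept their direction and stayed uncalled. ATP5PD, for A80 against Ethanol, reversed to -0.015 under nuclear scaling. That scaling divides every gene of a library by the same factor, and the median of all genes moved from -0.0039 to -0.15. Relative to that median ATP5PD was still higher. The difference of the log2 ratio of mitochondrial to nuclear level from Ethanol ranged, over left-out replicates, from -0.75 to -0.015 for A80, from -0.23 to -0.18 for A98, from 0.063 to 0.11 for A41, from -0.14 to 0.16 for A34 and from 0.00076 to 0.046 for Bexarotene. The 2.74-fold gap between A80 replicate 3 and the other A80 libraries in the summed mitochondrial level was 2.60-fold on TPM as deposited and 2.70-fold under nuclear scaling.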
